A study of Mus musculus with 20 samples.

Results

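Splicing and nuclear RNA-binding proteins were followed in the brains of mice with the NHE1 null mutation. The members are the array probes with a single gene symbol that starts with Srsf, Sfrs, Hnrnp, Snrp, Sf3, Prpf, Ddx or Pabp, or with Rbm and a digit, leaving out Rbm3, and with a value on 2 or more arrays in every region. This rule found 153 of the 15245 probes, which stand for 104 of the 7117 genes with a probe of their own. They were 13 probes of 8 SR protein genes, 30 of 17 hnRNP genes, 12 of 9 snRNP genes, 10 of 8 SF3 genes, 11 of 9 PRPF genes, 34 of 25 DEAD-box helicase genes, 6 of 3 poly(A)-binding protein genes and 37 of 25 RBM genes. A further 11 probes with these prefixes had values on too few arrays, among them all probes of Pabpn1l and Rbm15. The label describes the symbols and not every protein: Ddx58 is an antiviral RNA sensor of the cytoplasm, and Pabpc1 and Pabpc4 bind poly(A) tails mainly outside the nucleus.

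Each of the 20 arrays had 2 channels, of which 1 held amplified RNA from a region of an NHE1 null mutant brain. The other carried a wild-type pool of the matching region. Cortex, hippocampus, cerebellum and brain stem-diencephalon had 5 arrays each, 3 with the null RNA in channel 1 and 2 dye-swap arrays with it in channel 2. Arrays of a region with the same number were averaged, which gave 4 replicates for cortex and 3 apiece for hippocampus, cerebellum and brain stem-diencephalon, a total of 13. The same numbers recur in every region, and the main fit took the 13 replicates as independent. The labels give no allele, strain, age or sex, and do not say that different numbers are different animals, so p-values reflect only how far these samples spread, and that spread may be technical. The wild-type RNA was pooled, and the spread between wild-type mice cannot be measured.

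All values are log ratios, read as log2, of null over wild-type RNA after each array was centred on its median. Neither the log base nor which channel is the numerator is given in the sources used here. Directions are therefore likely only, and with the opposite numerator every sign below turns. An array had values for 6793 to 13963 probes and for 87 to 153 member probes, and precision is limited by how many arrays there are. The swapped cerebellum array of number 1 and the swapped brain stem-diencephalon array of number 2 held nearly the same values, with a correlation of 0.994 over 87 member probes. Results for these regions are also given without that array. Ratios hold no levels, so the identity of the regions could not be checked against marker expression.

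Splicing removes introns from a new transcript. Small nuclear ribonucleoproteins (snRNPs), each built of a short RNA with a ring of Sm proteins and particle-specific proteins, recognise the splice sites, and the SF3 proteins hold the particle that marks the branch point. PRPF proteins and several DEAD-box helicases rearrange and activate this machinery. SR proteins bind exons and mostly favour their inclusion, hnRNP proteins coat the transcript and often oppose it, and poly(A)-binding proteins cover the tail of the finished message. Many of these proteins are abundant in neurons, where alternative splicing is extensive.

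The 250 bases before the annotated start are shown for 3 members whose call in the mean of the regions held whichever replicate was left out and whose window lies outside every annotated gene. They are Pabpn1 and Rbm28, which were lower in null RNA, and Sf3b6, which was higher. Capitals mark matches to a CCAAT box (CCAAT, or ATTGG on the other strand) or a GC box (GGGCGG, or CCGCCC).

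Pabpn1, chr14:54893893-54894142, plus strand: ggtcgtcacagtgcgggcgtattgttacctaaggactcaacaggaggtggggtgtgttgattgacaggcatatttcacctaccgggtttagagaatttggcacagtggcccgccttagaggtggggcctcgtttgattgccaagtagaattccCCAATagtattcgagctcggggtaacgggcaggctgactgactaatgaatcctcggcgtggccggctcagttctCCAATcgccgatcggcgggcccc
Rbm28, chr6:29164725-29164974, minus strand: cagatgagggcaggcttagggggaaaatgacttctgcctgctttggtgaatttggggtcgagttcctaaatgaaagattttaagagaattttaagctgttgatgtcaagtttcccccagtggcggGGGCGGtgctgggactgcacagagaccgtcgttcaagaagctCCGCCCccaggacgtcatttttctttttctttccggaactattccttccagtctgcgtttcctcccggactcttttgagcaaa
Sf3b6, chr12:4817358-4817607, plus strand: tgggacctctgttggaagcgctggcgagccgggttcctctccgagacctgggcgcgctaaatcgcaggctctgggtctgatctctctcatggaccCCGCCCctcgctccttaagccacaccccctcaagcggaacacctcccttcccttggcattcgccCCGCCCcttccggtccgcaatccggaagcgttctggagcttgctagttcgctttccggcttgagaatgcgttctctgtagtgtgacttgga

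These windows come from RefSeq on the mouse build GRCm38.p6, and the array files give no coordinates of their own. The Pabpn1 window held 2 CCAAT matches, which began 97 and 23 bases before the start. The Rbm28 window held 2 GC box matches at 125 and 83 bases, and the Sf3b6 window held 2 at 155 and 91 bases. A window was found for 82 of the 91 member genes tested. CCAAT matched in 46.3% of the members' windows and in 34.5% of all 27025 windows. GC boxes matched in 54.9% and 32.9%, and the median GC content was 59.4% and 52.0%. TATAAA matched in 8.54% of the members' windows and 13% of all, and TGACGTCA in 2.44% and 1.62%. Each motif was searched on both strands, a match is not a site, and the listed motifs do not overlap in letters in the printed windows.

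The first question was which members differed between null and wild-type RNA over the whole set of regions. A total of 91 member genes had enough values to be tested, which needed 3 or more arrays in every region and both dye orientations in each. In the mean of the 4 regions 30 of the 91 passed an adjusted p of 0.05 (limma, Benjamini-Hochberg over 8319 features), or 33.0%, beside 26.1% of all features. Of these 12 were higher in null RNA and 18 lower, or 13.2% and 19.8% of the members, beside 13.2% and 12.9% of all features. The median of the 91 members was 0.01, as was that of all features. The changes were small: 29 of the 30 lay under 1.5-fold, and Pabpn1 alone passed it. Within the families, hnRNP proteins had 9 of 15 tested genes called, SR proteins 3 of 7, snRNP proteins 3 of 8, SF3 proteins 3 of 7, PRPF proteins 1 of 7, DEAD-box helicases 3 of 22, poly(A)-binding proteins 2 of 3 and RBM proteins 6 of 22. The count of 30 fell to 10 without cortex replicate 4, which is a single swapped array without a number, to 16 without the repeated array and to 19 without brain stem-diencephalon replicate 2, which holds the repeated array. In those fits 11.3%, 16.9% and 16.5% of all features were called. The calls of Srsf1, Srsf3, Srsf10, Hnrnpc, Hnrnpl, Snrpc, Sf3b6, Pabpn1 and Rbm28 held in each of the 13 fits that left out 1 replicate.

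**Figure D1:**
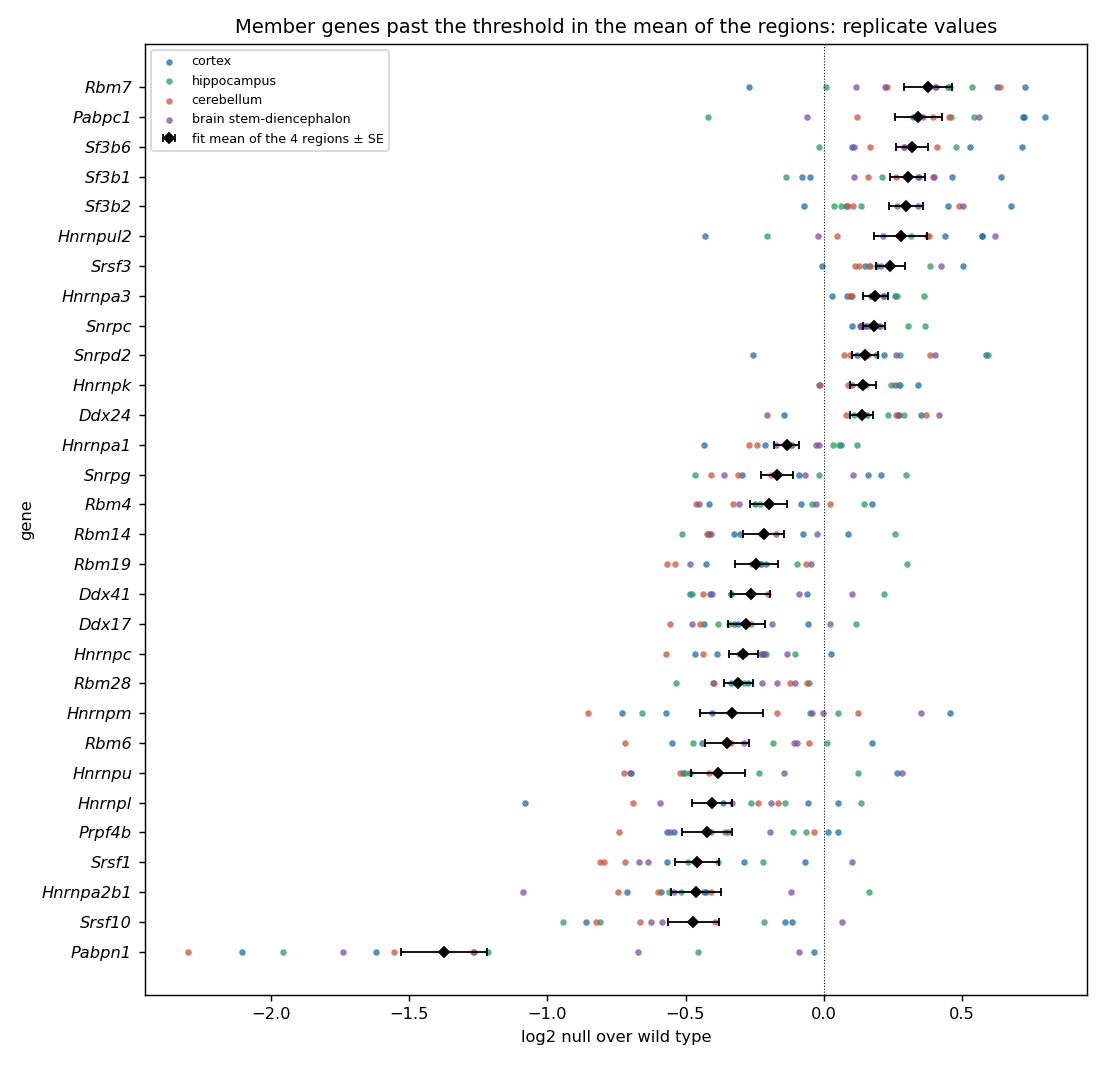
Member genes called in the mean of the 4 regions. The horizontal axis is log2 null over wild type, coloured points are replicates by region, and black diamonds with bars are the fitted mean of the regions and its SE. Pabpn1 stands far to the left at -1.37, and most other genes have replicates on both sides of 0.

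Among the SR proteins, Srsf1 and Srsf10 were lower in null RNA and Srsf3 was higher. Srsf1, the founding SR protein, which binds exonic enhancers, measured -0.07, -0.57 and -0.29 in cortex replicates 1 to 3, with no value in replicate 4. It measured -0.22, -0.49 and -0.38 in hippocampus, -0.79, -0.72 and -0.81 in cerebellum and 0.10, -0.63 and -0.67 in brain stem-diencephalon. The cerebellum replicates were the 3 lowest, and 11 of 12 replicates lay below 0. In cerebellum replicate 1 the value is that of the repeated array alone. The fitted mean was -0.46 ± 0.08 (SE, n = 12; 1.37-fold lower; adjusted p = 0.00214, limma). Srsf10, an SR-like protein known as a repressor of splicing after heat shock, measured -0.14, -0.11, -0.86 and -0.48 in cortex and -0.22, -0.94 and -0.81 in hippocampus. It measured -0.39, -0.66 and -0.83 in cerebellum and 0.07, -0.63 and -0.58 in brain stem-diencephalon. Only brain stem-diencephalon replicate 1 lay above 0, and the mean was -0.47 ± 0.09 (SE, n = 13; adjusted p = 0.00297, limma). Both tested probes of Srsf10 were below 0, at -0.69 and -0.28. Another Srsf10 probe, with values on 7 arrays and so not a member, had a median of -0.11 and a range of -0.59 to 0.36.

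Srsf3, a small SR protein that also links splicing to export and polyadenylation, measured -0.01, 0.50, 0.15 and 0.19 in cortex and 0.24, 0.38 and 0.16 in hippocampus. It measured 0.13, 0.17 and 0.11 in cerebellum and 0.21, 0.24 and 0.42 in brain stem-diencephalon. It lay above 0 in 12 of 13 replicates, with a mean of 0.24 ± 0.05 (SE; adjusted p = 0.00560, limma), and its 3 probes gave 0.20, 0.20 and 0.26. The other 4 tested SR genes, Srsf2, Srsf4, Srsf5 and Srsf11, lay between -0.15 and 0.17 and did not pass. The untested Srsf6 had a value on 11 arrays and lay below 0 on all 11, with a median of -0.37 and a range of -0.76 to -0.06.

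Of the hnRNP proteins, 6 were lower in null RNA and 3 higher. The lower ones were Hnrnpa2b1, which carries RNAs along neuronal processes, at -0.46 ± 0.09 (SE), Hnrnpl, which binds CA repeats, at -0.40 ± 0.07, Hnrnpu, a nuclear scaffold protein, at -0.38 ± 0.10, and Hnrnpm, which binds GU-rich RNA, at -0.33 ± 0.12. Hnrnpc, which binds uridine tracts of nascent transcripts, lay at -0.29 ± 0.05, and Hnrnpa1, a repressor of exon inclusion that was named after its value was seen, at -0.13 ± 0.05. The higher ones were Hnrnpul2, a relative of Hnrnpu, at 0.28 ± 0.10, Hnrnpa3, a close relative of Hnrnpa1, at 0.19 ± 0.04 and Hnrnpk, which binds cytosine-rich RNA, at 0.14 ± 0.05. The limma adjusted p-values of these 9 ranged from 0.00214 to 0.0468.

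Hnrnpc measured 0.03, -0.39, -0.22 and -0.46 in cortex, -0.10, -0.21 and -0.29 in hippocampus, -0.31, -0.44 and -0.57 in cerebellum and -0.13, -0.23 and -0.21 in brain stem-diencephalon. It was below 0 in 12 of 13 replicates, and only cortex replicate 1 was above. Its 4 probes gave means of -0.47, -0.33, -0.30 and -0.05, so 1 probe lay near 0. Hnrnpl measured 0.05, -0.36, -0.06 and -1.08 in cortex, 0.13, -0.26 and -0.14 in hippocampus, -0.24, -0.69 and -0.17 in cerebellum and -0.19, -0.59 and -0.33 in brain stem-diencephalon. Cortex replicate 4 was its lowest by far, and the call held without that replicate (-0.30, adjusted p = 0.0321, limma). Hnrnpa2b1 ranged from -1.09 to 0.16 with a median of -0.54, and 12 of 13 replicates lay below 0; hippocampus replicate 1 was the exception.

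The 5 probes of Hnrnpa3 all gave means above 0, from 0.08 to 0.30, and all 13 replicates lay above 0, between 0.03 and 0.36. Hnrnpm had replicates from -0.85 to 0.46 and only 9 of 13 below 0. The calls of Hnrnpa2b1, Hnrnpa3 and Hnrnpu ended without cortex replicate 4 (adjusted p = 0.117, 0.0567 and 0.0877, limma), where the mean of Hnrnpa2b1 was -0.27, and those of Hnrnpa1, Hnrnpk, Hnrnpm and Hnrnpul2 ended without any 1 of several replicates. Without the term for dye orientation the mean of Hnrnpm was -0.18 and did not pass (adjusted p = 0.188, limma). Without the repeated array the calls of Hnrnpa1, Hnrnpk, Hnrnpm, Hnrnpu and Hnrnpul2 ended, as adjusted p rose to between 0.0624 and 0.170. The remaining 6 tested hnRNP genes, Hnrnpa0, Hnrnpab, Hnrnpd, Hnrnpdl, Hnrnpf and Hnrnpr, lay between -0.21 and 0.09 in the mean.

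The snRNP and SF3 proteins included 5 of the 12 genes that were higher. Snrpc, a protein of the particle that binds the upstream splice site, measured 0.15, 0.13, 0.10 and 0.16 in cortex, 0.36, 0.20 and 0.30 in hippocampus, 0.17, 0.14 and 0.13 in cerebellum and 0.13, 0.14 and 0.20 in brain stem-diencephalon. All 13 replicates lay above 0, hippocampus replicates 1 and 3 highest, and the mean was 0.18 ± 0.04 (SE; 1.13-fold; adjusted p = 0.00641, limma). Its probes gave 0.15 and 0.21. Of the Sm ring proteins, Snrpd2 was higher at 0.15 ± 0.05 (SE; adjusted p = 0.0310, limma) and Snrpg lower at -0.17 ± 0.06 (SE; adjusted p = 0.0403, limma). Without the orientation term Snrpd2 lay at 0.24 (adjusted p = 0.0113, limma), and Snrpg did not pass (adjusted p = 0.191, limma). Both calls ended without cortex replicate 4 or without the repeated array, among others. The remaining 5, Snrpa1, Snrpb, Snrpb2, Snrpd1 and Snrpe, lay between -0.28 and 0.16. Of the 8 tested snRNP genes 6 lay above 0 in hippocampus (median 0.25), 6 in cortex (0.07), 5 in brain stem-diencephalon (0.04) and 5 in cerebellum (0.03), and none passed the threshold in a single region.

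Sf3b1, Sf3b2 and Sf3b6 belong to the complex that contacts the branch point, and all were higher. Sf3b6, which lies next to the branch point adenosine, measured 0.10, 0.53 and 0.72 in cortex replicates 1, 2 and 4, -0.02 and 0.48 in hippocampus replicates 1 and 2, 0.17, 0.41 and 0.29 in cerebellum and 0.32, 0.29 and 0.11 in brain stem-diencephalon. It was above 0 in 10 of 11 replicates, with a mean of 0.32 ± 0.06 (SE; 1.25-fold; adjusted p = 0.00286, limma). Sf3b1, the largest subunit of that complex, lay at 0.30 ± 0.06 (SE) with 10 of 13 replicates above 0. Sf3b2 lay at 0.30 ± 0.06 (SE) with 12 of 13 replicates above 0, and its 3 probes gave 0.16, 0.25 and 0.29. Their limma adjusted p-values were 0.00477 and 0.00444, and both calls ended narrowly without cortex replicate 4, at 0.0508 and 0.0526. Sf3a2, Sf3a3, Sf3b4 and Sf3b5 lay between -0.19 and 0.15 and did not pass. Of the 7 SF3 genes 3 thus rose and none fell, beside 13.2% of all features that were higher.

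Among the PRPF proteins only Prpf4b, a kinase that acts on the spliceosome, passed, at -0.42 ± 0.09 (SE; 11 of 13 replicates below 0; adjusted p = 0.00519, limma; 0.0838 without cortex replicate 4). The other 6 tested, Prpf4, Prpf6, Prpf8, Prpf19, Prpf31 and Prpf38a, lay between -0.02 and 0.19. Of the DEAD-box helicases, Ddx17, a helicase of splicing and transcription, was lower at -0.28 ± 0.07 (SE; adjusted p = 0.00818, limma), as was Ddx41, a spliceosome-associated helicase, at -0.26 ± 0.07 (SE; adjusted p = 0.0155, limma). Ddx24 was higher at 0.14 ± 0.04 (SE; adjusted p = 0.0285, limma). All 3 calls ended without cortex replicate 4 and without the repeated array, and those of Ddx24 and Ddx41 without some other replicates too. The 19 other helicases tested lay between -0.13 and 0.12, among them Ddx5, the closest relative of Ddx17, and the export helicases Ddx39a and Ddx39b.

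The poly(A)-binding proteins held the widest spread of the families. Pabpn1 coats new poly(A) tails in the nucleus and sets their length. It measured -0.03, -1.62, -1.26 and -2.11 in cortex, -0.45, -1.95 and -1.22 in hippocampus, -2.30, -1.56 and -1.27 in cerebellum and -0.09, -1.74 and -0.67 in brain stem-diencephalon. Every replicate lay below 0, and replicate 1 was the nearest to 0 in cortex, hippocampus and brain stem-diencephalon but the lowest in cerebellum. There its value is that of the repeated array alone, which also enters brain stem-diencephalon replicate 2. The mean was -1.37 ± 0.16 (SE, n = 13; 2.59-fold lower; adjusted p = 0.000108, limma), and without the repeated array -1.29 (adjusted p = 0.00248, limma). It rests on 1 member probe. Another Pabpn1 probe, with values on 10 arrays and so not a member, had a median of -0.47 and a range of -0.93 to 0.18.

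Pabpc1, which binds tails in the cytoplasm and helps to start translation, measured 0.32, 0.73, 0.80 and 0.72 in cortex and -0.42, 0.46 and 0.54 in hippocampus. It measured 0.12, 0.40 and 0.45 in cerebellum and -0.06, 0.56 and 0.36 in brain stem-diencephalon. It lay above 0 in 11 of 13 replicates, and both replicates below 0 had number 1. The mean was 0.34 ± 0.08 (SE; 1.27-fold; adjusted p = 0.0102, limma), with probes at 0.42 and 0.25, and the call ended without cortex replicate 4 (0.0599) and without the repeated array (0.0539). Pabpc4, a cytoplasmic relative, lay at -0.10 ± 0.06 (SE; adjusted p = 0.207, limma), and its 3 probes gave -0.21, -0.20 and 0.11.

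Of the RBM proteins, 5 were lower and 1 higher. Rbm28, a nucleolar protein that also associates with spliceosomal snRNPs, measured -0.28, -0.34 and -0.40 in cortex replicates 1, 2 and 4, -0.53, -0.29 and -0.05 in hippocampus, -0.06, -0.40 and -0.12 in cerebellum and -0.17, -0.10 and -0.22 in brain stem-diencephalon. All 12 replicates were below 0, and the mean was -0.31 ± 0.05 (SE; adjusted p = 0.00206, limma). Rbm6, a regulator of alternative splicing, lay at -0.35 ± 0.08 (SE), Rbm19, which acts in ribosomal RNA processing, at -0.24 ± 0.08, Rbm14, a paraspeckle protein, at -0.22 ± 0.07, and Rbm4, a splicing regulator named after its value was seen, at -0.20 ± 0.07. Their limma adjusted p-values lay between 0.00757 and 0.0448, and all 4 calls ended without cortex replicate 4. Those of Rbm4, Rbm14 and Rbm19 also ended without the repeated array, among others.

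Rbm7, a subunit of the complex that hands nuclear RNAs to the exosome for decay, was the highest member in the mean. It measured -0.27, 0.45, 0.73 and 0.63 in cortex, 0.01, 0.53 and 0.46 in hippocampus, 0.23, 0.64 and 0.40 in cerebellum and 0.12, 0.41 and 0.22 in brain stem-diencephalon. It was above 0 in 12 of 13 replicates, with a mean of 0.38 ± 0.09 (SE; 1.30-fold; adjusted p = 0.00724, limma; 0.0618 without cortex replicate 4). Its member probes gave 0.47 and 0.32, and another probe that is not a member had a median of 0.24 over 14 arrays. The 16 other RBM genes tested lay between -0.18 and 0.23.

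Within single regions few members passed the same threshold. In cortex 4 of 91 did, beside 4.12% of all features (1.68% higher and 2.44% lower): Hnrnpr at 0.43 ± 0.10 (SE; adjusted p = 0.0423, limma), Pabpc1 at 0.62 ± 0.15 (0.0364), Pabpn1 at -1.39 ± 0.27 (0.0219) and Rbm28 at -0.38 ± 0.09 (0.0414). Hnrnpr, a relative of the mRNA-binding protein Syncrip, measured 0.12, 0.56, 0.18 and 0.62 in cortex, all above 0, and -0.20, 0.10 and -0.76 in cerebellum. In cerebellum 3 members passed and all were lower, beside 3.07% of all features (1.57% lower): Srsf1 at -0.77 ± 0.14 (SE; adjusted p = 0.0158, limma), Hnrnpc at -0.46 ± 0.10 (0.0318) and Pabpn1 at -1.71 ± 0.31 (0.0122). In hippocampus 0 of 91 passed with limma, beside 0.661% of all features, and 15 (16.5%) had an unadjusted p under 0.05, beside 14.1% of all. In brain stem-diencephalon 0 of 91 passed with limma, beside 0.361%, and 13 (14.3%) had an unadjusted p under 0.05, beside 13.5% of all. No cortex call was left without cortex replicate 2, 3 or 4, whereas 28 members (30.8%) were called without cortex replicate 1, beside 20.3% of all features in that fit. No cerebellum call was left without any 1 of the cerebellum replicates or without the repeated array, where the adjusted p-values were 0.115 for Srsf1, 0.101 for Hnrnpc and 0.113 for Pabpn1 (limma).

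**Figure D2:**
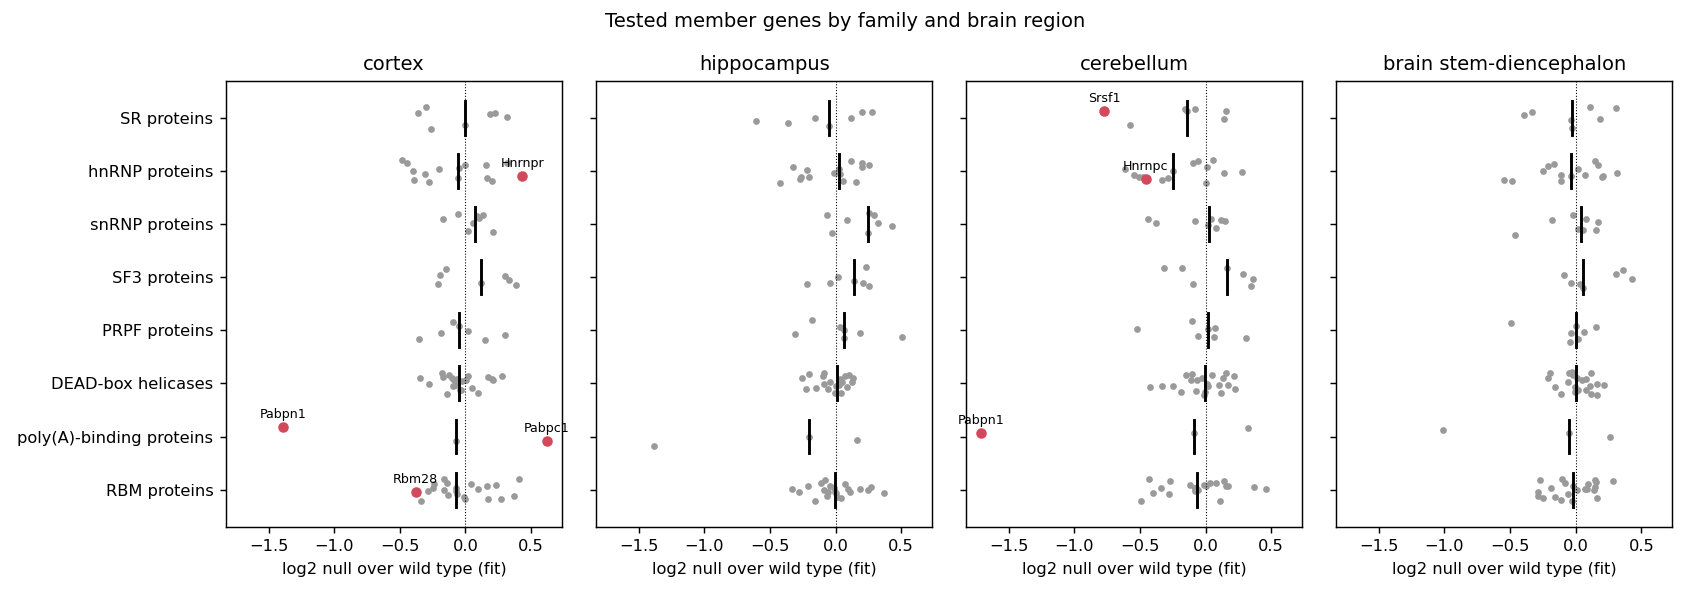
Fitted log2 null over wild type of the 91 tested member genes in each region, by family. Each point is a gene, red points with names passed the threshold in that region, and black bars are family medians. Family medians lie between -0.25 (hnRNP proteins in cerebellum) and 0.25 (snRNP proteins in hippocampus), and the named genes are 4 in cortex and 3 in cerebellum.

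No member passed a test of a difference between regions. The F test of equal regions called 0 of 91 members with limma, as it called 0 of all features (0% of 8319), and 2 members (2.20%) had an unadjusted p under 0.05, beside 4.22% of all features. Of the 6 pairwise differences, the smallest adjusted p was 0.286, for Hnrnpr in cortex minus cerebellum (0.72 ± 0.16, SE, limma; 0.0481% of all features were called in that pair, 0.012% in cortex minus hippocampus and 0% in the 4 other pairs). The fitted ratio had 1 sign in all 4 regions for 56 of the 91 members, 25 above 0 and 31 below, which is 61.5% beside 50.6% of all features. The regions share the orientation term and, for cerebellum and brain stem-diencephalon, an array, so these counts are a description only. Of the 15 hnRNP genes 10 lay below 0 in cerebellum (median -0.25), 10 in cortex (-0.05), 8 in brain stem-diencephalon (-0.03) and 7 in hippocampus (0.03).

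The replicates did not contribute alike. Over the 18 genes lower in the mean, the median in a replicate was 0.05 in cortex 1, 0.06 in hippocampus 1 and -0.04 in brain stem-diencephalon 1, and between -0.57 and -0.21 in the 10 other replicates. Over the 12 higher genes the median was 0.09, 0.16 and 0.15 in those 3 replicates, and 0.15 to 0.45 in the others. These genes were called on the same replicates, so this is a description of where the signal lay. The orientation pairs differed in the same replicates. Array pairs of a region with opposite orientation had a median correlation over member probes of -0.50 in the 16 pairs without a channel 1 array of number 1, and of 0.15 in the 8 pairs with one, where a swap should turn the sign. Within the 16, the swapped number 1 arrays of hippocampus and brain stem-diencephalon gave only -0.00434 to 0.147 with the channel 1 arrays of numbers 2 and 3. The swapped number 1 array of cerebellum, which is the repeated array, gave -0.396 and -0.502 with them. Number 1 of hippocampus gave -0.154 with its own swap. Eif2s3y, a gene of the Y chromosome, lay at -1.36 to -0.65 on those 4 channel 1 arrays of number 1, and at a median of 1.33 on the 15 other arrays with a value, of which 2 were below 0. Whether number 1 differs from the other numbers in sex, genotype or channel order was not tested, so the sign of its values is less certain than that of the others. Without those 4 arrays 41 members (45.1%) were called, among them the 30 called with them, beside 38.6% of all features in that fit. The swapped arrays of number 1 in hippocampus, cerebellum and brain stem-diencephalon stayed in that fit.

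**Figure D3:**
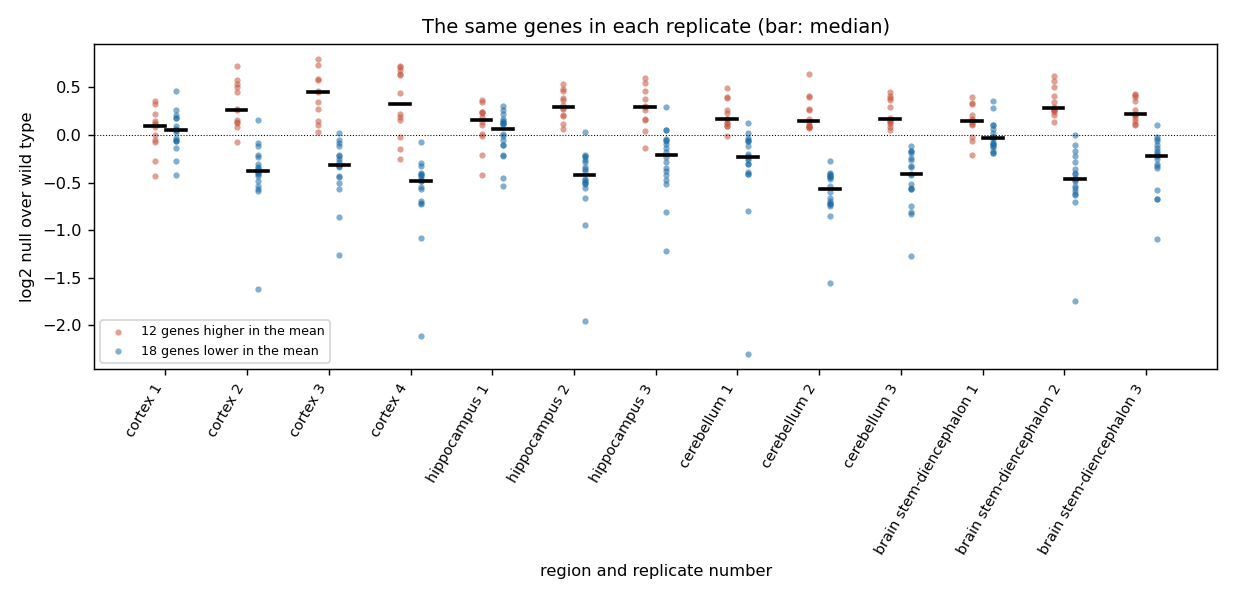
The 30 called genes in each of the 13 replicates, with log2 null over wild type on the vertical axis. Red points are the 12 genes higher in the mean, blue points the 18 lower ones, and black bars the median of each set. Both sets overlap around 0 in replicate 1 of cortex, hippocampus and brain stem-diencephalon and lie apart in most other replicates.

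Probes of a gene were compared where it had more than 1. Of the 33 genes with 2 or more member probes, 23 had fitted means of 1 sign, and the median range between probes of a gene was 0.14 on the log2 scale. The widest were Hnrnpc with 0.43 and Srsf10, both described above, and Ddx27, a helicase of ribosome assembly, whose 3 probes gave 0.23, -0.07 and -0.17. Ddx27 averaged 0.09 ± 0.06 (SE; adjusted p = 0.251, limma). Not every member probe of a called gene passed when probes were fitted singly. Among those that did not were probes of Rbm14 at -0.08 (adjusted p = 0.461, limma), Hnrnpa2b1 at -0.20 (0.306) and Hnrnpu at -0.18 (0.314). Whether the probes of a gene lie in different transcripts was not tested, and related genes such as Hnrnpa1 and Hnrnpa3 or Rbm4 and Rbm4b may share signal on cDNA arrays.

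**Figure D4:**
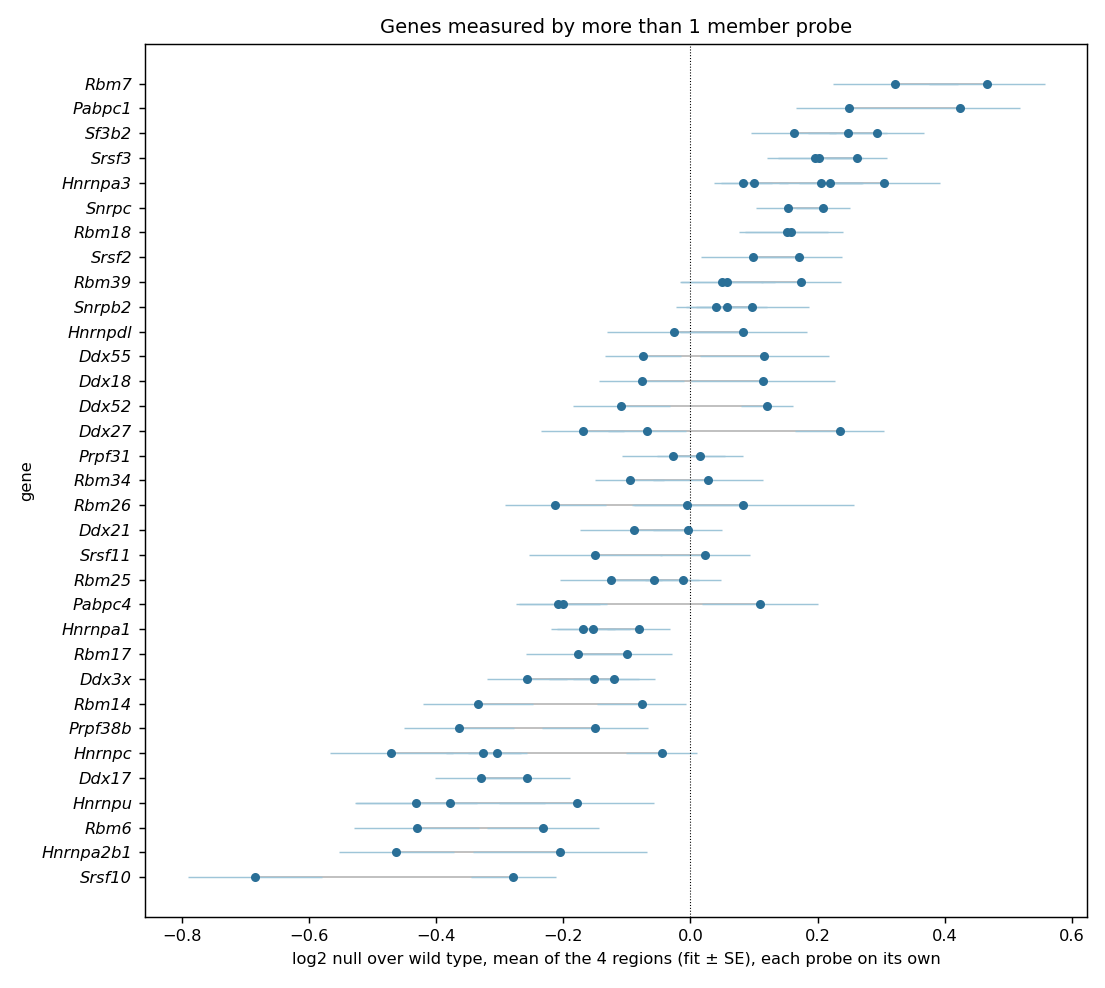
The 33 genes with more than 1 member probe. Each point is a probe's fitted mean of the 4 regions with its SE as a bar, on the axis of log2 null over wild type, and a line joins the probes of a gene. Hnrnpc and Srsf10 spread most, and 23 genes have all probes on the same side of 0.

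A further 13 member genes had no probe with enough values for the test: Ddx31, Ddx50, Ddx56, Hnrnph1, Hnrnpll, Prpf3, Prpf38b, Rbm12b1, Rbm43, Rbm48, Sf3b3, Snrpf and Srsf6. Their 14 probes had values on 11 to 17 arrays. The medians over arrays lay between -0.39 and 0.25, with 3 above 0 and 11 below. Both probes of Prpf38b had medians below 0, at -0.23 over 17 arrays and -0.35 over 15.

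Other genes of the same pathways were counted in the mean of the regions, beside 26.1% of all features. Of 38 other splicing factors tested, 10 passed, 3 higher and 7 lower, among them Khsrp, which binds AU-rich RNA, at -0.64 and Safb, a nuclear scaffold protein, at -0.42. Of 41 genes of the spliceosome core and its assembly 7 passed, 3 higher and 4 lower, among them Strap, which acts with the complex that loads Sm rings, at 0.38 and Srpk1, a kinase of SR proteins, at -0.49. Of 30 genes of 3′ end processing, export and decay 8 passed, 5 higher and 3 lower, among them the poly(A)-binding zinc finger protein Zc3h14 at 0.43. The medians of the 3 lists lay between -0.03 and 0.03.

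Markers of other cell types were measured for a few genes only. Of 4 neuron markers tested Tubb3 was lower (-0.66) and Calb1, Pcp2 and Nefl did not pass. Of 4 astrocyte markers Slc1a3 was higher (0.14), and Glul (-0.06), Aldoc (-0.06) and Gja1 (0.002) did not pass. Of 4 choroid plexus and meninges markers Ttr (-0.31) and Igf2 (-0.24) were lower, and Col1a2 (0.07) and Dcn (0.05) did not pass. By region Ttr lay above 0 in hippocampus (0.68) and below it in brain stem-diencephalon (-0.19), cortex (-0.70) and cerebellum (-1.05), and it passed in cerebellum. Of 3 microglia markers and of 1 myelin marker, Mbp at -0.04, none passed in the mean. The microglia markers C1qa, C1qb and C1qc lay between 0.38 and 0.58 in cerebellum, where each had an unadjusted p under 0.05 and none passed, and between -0.33 and -0.18 in cortex. Of 2 vessel and erythrocyte markers Pecam1 was lower (-0.44) and Hbb-b1 higher (0.56). Among sex-linked genes Xist was higher at 0.22 (adjusted p = 0.0198, limma). The Y-linked Eif2s3y lay at 0.74 and did not pass (adjusted p = 0.0961, limma). Another Xist probe, with values on 13 arrays, had a median of 0.02 and lay below 0 on 5 of them. The replicate medians of these lists ran from -0.17 to 0.16 in cortex for neurons and from -0.32 to 0.93 for vessels and erythrocytes. The part of cell makeup and of sex in the members' ratios, those called in cerebellum or cortex included, was not tested, and in bulk tissue fewer cells of a type and less RNA per cell cannot be told apart.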

How the data were processed

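The deposited values of the 20 arrays were read as log2 ratios of 2 channels, which the authors had computed before deposit and which, as the values show, were centred near 0. The sources used here do not give the log base, channel order, scanner or background correction. Per the labels the RNA was amplified, and dye-swap arrays hold the null RNA in channel 2. Their values were multiplied by -1, and each array was centred on its median. Deposited array medians lay between 0.00862 and 0.0609.

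Gene names came from the platform annotation (9604 probes with a single symbol, 213 with several, 5428 with none), updated through Entrez IDs for 9496; no member's symbol changed. Probes of a gene were averaged, then arrays that share region and number. The unnumbered swapped cortex array was cortex replicate 4 and may repeat a numbered extract. A linear model per feature had a term per region and 1 for the mean dye orientation, with variances moderated by limma 3.58.1 in R 4.3.3. Features needed 3 arrays in every region and both orientations in each. P-values were adjusted over 8319 features by Benjamini-Hochberg, with a threshold of 0.05. The model was tested on simulated data. Replicate values in the text do not carry the orientation term, and fitted values do.

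The members and lists were chosen with earlier results of these data known. Members named are those called in a region, up to 4 higher and 4 lower per family called in the mean, and 4 genes with the widest spread between probes. Other pathway genes named are those with the smallest p in their list. Prpf38b, Srsf6, Hnrnpa1, Rbm4 and the genes listed as not passing are given for completeness. Alternatives changed the orientation term, the filter, centring, scaling, moderation, probe and array averaging and the replicate block, or left out the repeated array, the channel 1 arrays of number 1 or 1 replicate. Promoter windows came from RefSeq, build GRCm38.p6.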

Additional observations from a re-analysis of the deposited data

Results flagged for a closer look

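In cortex, the only region with 4 replicates, 27 named genes had a value in each, and for 2 of them cortex replicate 1 stood far from the other replicates by Dixon's test; chance flags about 1 in 20. Hnrnpul2 was at -0.43 in cortex replicate 1 and between 0.44 and 0.57 in the others. Pabpc1 was at 0.32 in cortex replicate 1 and between 0.72 and 0.80 in the others. The cause was not tested.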

How the results depend on the processing

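Of the 30 calls in the mean of the regions, all kept their direction under each alternative in which they were tested, and 9 passed in every one; single probes, tested in place of genes, are not counted in this. Brackets below give the percentage of tested members and then that of all features. The count of 30 became 16 (17.6%, 16.9%) without the repeated array, all 16 among the 30. It ranged from 10 (10.99%, 11.3%) to 36 (39.6%, 30.95%) when 1 replicate was left out, the highest without cortex replicate 1. The lowest came without cortex replicate 4, with all 10 among the 30. Without brain stem-diencephalon replicate 2 it was 19 (20.9%, 16.5%). In cortex the count of 4 became 2 (1.92%, 2.44%) with a filter of 2 arrays in every region and 0 (0%, 0.445%) with arrays scaled to 1 spread. It became 0 (0%, 0.024%) with a variance trend and robust moderation and 16 (17.6%, 14.5%) with every array as a replicate. It was 2 (2.20%, 4.86%) without the repeated array and 26 (28.6%, 18.7%) without the channel 1 arrays of number 1. With 1 replicate left out it ranged from 0 (0%, 0.0721% to 0.673%) to 28 (30.8%, 20.3%), with 8 (8.79%, 10.4%) without hippocampus replicate 1. It was 1 or 2 (1.10% or 2.20%, 1.39% to 3.19%) without hippocampus 2, cerebellum 2 or 3, or brain stem-diencephalon 2 or 3. In hippocampus the count of 0 became 9 (9.89%, 6.01%) with every array as a replicate and 4 (4.40%, 2.12%) without the channel 1 arrays of number 1. Over left-out replicates it ranged from 0 to 1 (0% to 1.10%, 0.156% to 0.805%). In cerebellum the count of 3 became 6 (5.77%, 2.18%) with the filter of 2 arrays, 1 (1.10%, 0.337%) with the variance trend and 7 (5.47%, 3.16%) of single probes. It was 24 (26.4%, 17.4%) with every array as a replicate and 0 (0%, 0.577%) without the repeated array. Without the channel 1 arrays of number 1 it was 19 (20.9%, 12.3%). With 1 replicate left out it ranged from 0 (0%, 0.240% to 0.625%) to 9 (9.89%, 5.48%), the highest without hippocampus replicate 1. It was 5 (5.49%, 4.36% and 3.53%) without cortex 3 or brain stem-diencephalon 1. In brain stem-diencephalon the count of 0 became 3 (3.30%, 3.83%) with every array as a replicate. It stayed at 0 (0%, 0.204% to 0.457%) over left-out replicates, as did the count of the F test (0%, 0% to 0.0601%).

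The replicate numbers are shared between regions, but the labels do not say that they mark an animal or day. Same-numbered replicates of different regions had correlations of -0.0304 to 0.604 (median 0.306), 14 of 18 above 0.1, and each of the 12 numbered replicates correlated best with its own number, which is a hint from the data only. With the number as a random replicate block cortex had 8 calls (8.79% of members, 8.31% of all features) and hippocampus 1 (1.10%, 1.02%). Cerebellum had 10 (10.99%, 5.96%) and the mean 20 (21.98%, 17.2%). The 10 not called then were Ddx24, Hnrnpa1, Hnrnpk, Hnrnpm, Hnrnpul2, Rbm14, Rbm19, Rbm4, Snrpd2 and Snrpg.

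The 32 family medians by region changed sign in 78 of 768 values, all for medians within 0.12 of 0. How bright a probe was over background was not analysed here.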
